A study of Mus musculus with 18 samples.

Results

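The genes of oxidative phosphorylation were followed in CD3+ tumor-infiltrating lymphocytes (TILs) of *Nr2f6*+/+ and *Nr2f6*-/- mice with and without PD-L1 blockade. Members were chosen by symbol alone: the prefixes Nduf, Uqcr, Cox4 to Cox8, Atp5, mt-Nd, mt-Co, mt-Cyt and mt-Atp plus *Sdha*, *Sdhb*, *Sdhc* and *Sdhd*, without pseudogenes. The deposited expression values cover 37236 genes. Of these, 105 carried such a symbol, and 95 of the 105 averaged 10 normalized counts or more across the samples. These 95 members comprised 87 genes of the nuclear genome and 8 of the mitochondrial genome. By complex, assigned from the symbol prefix alone, there were 50 members for complex I (44 nuclear and 6 mitochondrial), 4 for complex II (all nuclear), 9 for complex III (8 and 1), 15 for complex IV (14 and 1) and 17 for complex V (all nuclear). Of the 95, 85 are subunits by their symbol, 7 are Ndufaf assembly factors of complex I, and *Atp5s*, *Atp5sl* and *Cox7a2l* carry a matching prefix without being core subunits. The assembly factors and these non-subunits were counted with the complex of their prefix, whether or not they belong to it.

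Oxidative phosphorylation takes place in the inner mitochondrial membrane, where complexes I to IV pass electrons to oxygen and pump protons, and complex V, the ATP synthase, uses the returning protons to make ATP. Its subunits come from both genomes: the mitochondrial DNA encodes a few hydrophobic core subunits as parts of long precursor transcripts, and all other subunits are transcribed in the nucleus and imported. T cells are known to raise both glycolysis and respiration when they are activated, and exhausted TILs are known for poor mitochondrial function.

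B16-OVA, a mouse melanoma line carrying ovalbumin as a model antigen, was implanted s.c. (500000 cells) in C57BL/6 wild-type mice or in mice lacking *Nr2f6* in the whole body, a nuclear receptor that represses T-cell effector genes, after 8 backcrosses. Mice aged 8 to 12 weeks were given 0.5 mg of an αPD-L1 antibody or of the control antibody IgG2b i.p. from d3 on, in repeated doses, and tumors were taken at d14. T cells were enriched with CD4 and CD8 beads, pooled and sorted for CD3, and the sequencing kit captured mRNA at its 3′ end. Of the 18 samples, 6 came from IgG2b-treated mice (3 of each genotype) and 12 from αPD-L1-treated mice (6 of each genotype). Each library is a bulk mixture, so fewer cells of a type and less RNA per cell cannot be told apart. The labels do not tie samples to separate mice, and p-values measure the spread between these samples.

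Library numbers in the labels fell into 2 sets: the first holds replicates 1 to 3 of every group, the second only replicates 4 to 6 of both αPD-L1 groups, and what sets them apart is not given in the sources used here. Each sample had 12473391 to 18609482 reads on genes, and 3 reads, the limit a count of 0 allows, corresponded to between 2.46 and 3.64 normalized counts. *Nr2f6*, the deleted gene, was at 0 in all 9 *Nr2f6*-/- samples and between 20.2 and 201 normalized counts in the 9 *Nr2f6*+/+ samples. All 11 T cell markers were detected, and their summed level was 56813 to 63459 in *Nr2f6*+/+ IgG2b, 67815 to 72499 in *Nr2f6*-/- IgG2b, then 61500 to 88845 under αPD-L1 in *Nr2f6*+/+ and 80568 to 95494 in *Nr2f6*-/-. The summed level of 14 macrophage and monocyte markers was 16514 to 20486, 9385 to 13115, 1680 to 6817 and 926 to 2618 in the same order, and that of 5 platelet markers was 2300 to 2611 in *Nr2f6*+/+ IgG2b against at most 703 elsewhere. The platelet sum was mostly *Pf4*: medians in *Nr2f6*+/+ IgG2b were 2158.5 for *Pf4*, 158 for *Ppbp* and 0 for *Itga2b*, *Gp9* and *Gp1bb*. The marker sums move with the groups compared here, and their part in the results was not tested.

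Of the 13 mRNAs of the mitochondrial genome, 6 were abundant, which means at least 1000 normalized counts on average, a limit set after the values were seen. They were *mt-Nd1*, *mt-Nd2*, *mt-Nd4* and *mt-Nd5*, all of complex I, *mt-Cytb*, the cytochrome b of complex III, and *mt-Co1*, the catalytic subunit of complex IV. *mt-Nd3* and *mt-Nd6* passed the minimum with means of 30.5 and 14.3. The other 5 did not pass: *mt-Co2* had a mean of 5.07, *mt-Atp6* 1.16 and *mt-Co3* 0.116, and *mt-Atp8* and *mt-Nd4l* were at 0 in all 18 samples. Of the *mt-Co2* value all came from *Nr2f6*-/- αPD-L1 replicate 6 (91.2), the other 17 samples being at 0. The 5 nuclear candidates that missed the minimum were *Cox4i2*, *Cox7b2* and *Cox8c*, all at a mean of 0, *Ndufa4l2* at 0.162 and *Cox8b* at 2.73, most of them isoforms known from other tissues. Just above the minimum stood *Cox6b2* at 14.1 and just below it *mt-Co2*.

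The nuclear genome holds copies of mitochondrial DNA, and of reads that fit several places the authors kept 1 alignment. Transcripts of the GENCODE M21 annotation (GRCm38, the assembly of mm10) were therefore aligned. *mt-Co2* (chromosome M, 7013 to 7696, plus strand) matched *Gm28661* (chromosome 1, 24614885 to 24615565) with 0 differences over 681 bases. *mt-Atp6* matched *Gm10925* (0 differences over 678 bases), *mt-Co3* matched *Gm28437* (0 over 783) and *mt-Nd4l* matched *Gm10222* (0 over 294), all in the same stretch of chromosome 1. *mt-Nd3* differed from *Gm28438* at 1 of 345 aligned bases. For *mt-Atp8* the best match was 81.4% identical. For the whole of *mt-Nd1* the best match, *Gm11834*, was 76.6% identical over 53.2% of its length, and for its last 150 bases, the end that the kit captures, the best match was *Gm48258* (chromosome 12), with 29 differences over 147 bases (80.3% identity). The last aligned bases of *mt-Co2* and of *mt-Nd1* are shown with those of the best copy of the whole transcript, to set a gene that cannot be told from its copy beside one that can. Capitals mark differing bases:
mt-Co2: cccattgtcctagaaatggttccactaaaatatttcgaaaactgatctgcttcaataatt
Gm28661: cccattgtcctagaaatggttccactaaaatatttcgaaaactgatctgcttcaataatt
mt-Nd1: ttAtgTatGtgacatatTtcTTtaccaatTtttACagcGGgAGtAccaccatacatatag
Gm11834: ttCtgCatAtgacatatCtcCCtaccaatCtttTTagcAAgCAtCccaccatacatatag

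Between *mt-Nd1* and *Gm11834* 14 of these 60 bases differed. Identity over the 3′ end did not separate counted from uncounted genes throughout: the last 150 bases of *mt-Co1* also had 0 differences from a copy on chromosome 1 (*Gm29216*), and *mt-Co1* had a mean of 7391 normalized counts. Whether reads of the 5 uncounted mRNAs were assigned to these copies was not tested, because the copies are not analysed here. Some of these genes also overlap a neighbor on the same strand: *mt-Atp8* and *mt-Atp6* by 43 bases, *mt-Atp6* and *mt-Co3* by 1, *mt-Nd4l* and *mt-Nd4* by 7. The part of these overlaps in the counts was not tested. *mt-Nd6*, the only one of the 8 mitochondrial members on the minus strand, shares 14 bases with *mt-Nd5* on the other strand, and the strand setting of the counting is not given in the sources used here.

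No member passed an adjusted p of 0.05 (limma with Benjamini-Hochberg adjustment over 11992 genes) in any of the 6 comparisons. The share of all genes tested that did was 0.175% for genotype under αPD-L1, 0% for genotype under IgG2b, 0.242% for αPD-L1 in *Nr2f6*+/+, 0.325% for αPD-L1 in *Nr2f6*-/-, 0.617% for *Nr2f6*-/- αPD-L1 against *Nr2f6*+/+ IgG2b and 0% for the difference of the αPD-L1 effect between genotypes. Member counts at an unadjusted p under 0.05, with the share of all genes for each direction, are given with each comparison as a description. These shares belong to the main fit. For fits under other settings the share of all genes is not given here, at either threshold.

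Together, the 8 mitochondrial members held 0.440%, 0.437% and 0.412% of all counted reads in *Nr2f6*+/+ IgG2b and 0.790%, 0.547% and 0.674% in *Nr2f6*-/- IgG2b. In *Nr2f6*-/- αPD-L1 the share ran from 0.520% to 0.969% with a median of 0.850%, and in *Nr2f6*+/+ αPD-L1 from 0.338% to 1.04% with a median of 0.632%. All *Nr2f6*-/- samples of both treatments therefore lay above the 3 *Nr2f6*+/+ IgG2b samples, while *Nr2f6*+/+ αPD-L1 samples lay on both sides. Within *Nr2f6*+/+ αPD-L1 the first library set (0.698%, 1.04% and 0.838%) lay above the second (0.427%, 0.338% and 0.567%) without overlap. The rRNAs of the mitochondrial genome split the same way in that group, with 6.21%, 7.85% and 6.63% in the first set and 3.35%, 2.80% and 3.70% in the second. The 87 nuclear members held between 2.44% and 3.01% of reads over all 18 samples. Between groups, these rRNAs held 2.77% to 5.52% in *Nr2f6*+/+ IgG2b and 3.50% to 6.27% in *Nr2f6*-/- αPD-L1, which overlap. Within *Nr2f6*-/- αPD-L1 both shares also split by library set without overlap, but in opposite directions: the mRNA share was 0.853% to 0.969% in the first set and 0.520% to 0.848% in the second, and the rRNA share 3.50% to 3.997% in the first and 4.28% to 6.27% in the second.

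**Figure D1:**
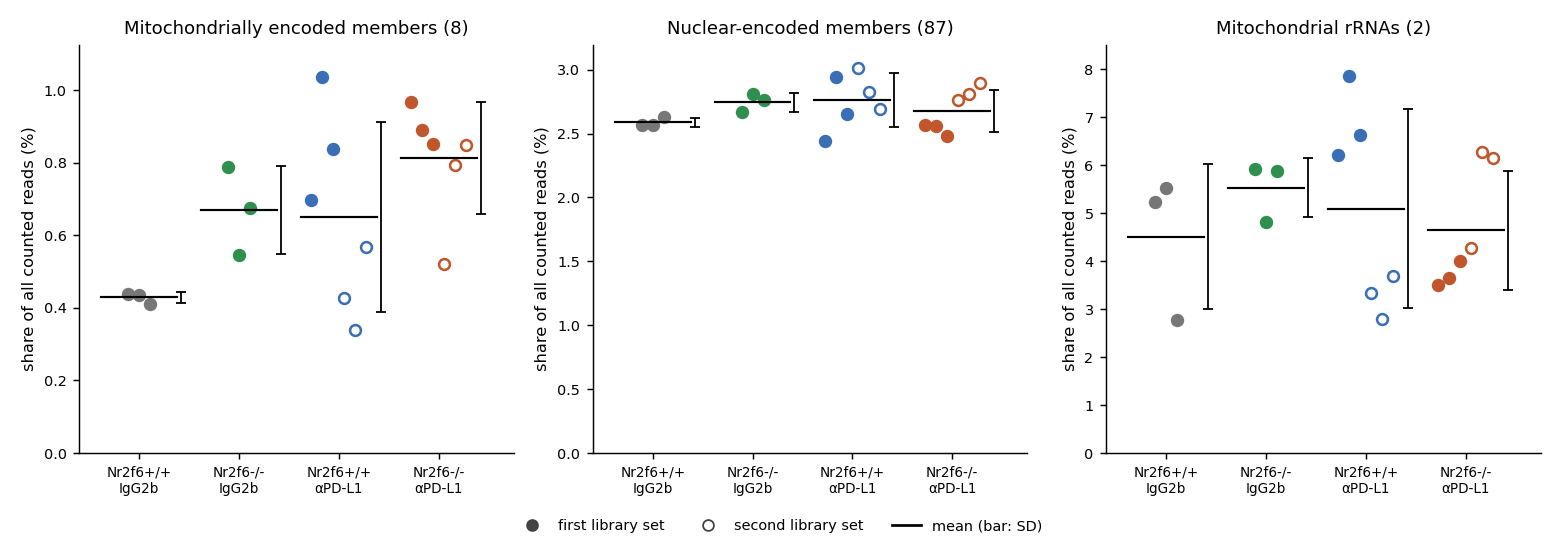
Share of all counted reads (%, y axis from 0) on the 8 mitochondrial members, the 87 nuclear members and the 2 mitochondrial rRNAs in each of the 18 samples by group; filled points are the first library set, open points the second, lines are means and bars SD. The mitochondrial mRNA share was 0.412% to 0.440% in the 3 *Nr2f6*+/+ IgG2b samples and at least 0.520% in all *Nr2f6*-/- samples, and the nuclear share stayed between 2.44% and 3.01%.

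*mt-Nd1*, a membrane subunit of complex I, was at 24275, 23544 and 24344 normalized counts in *Nr2f6*+/+ IgG2b and at 45811, 30659 and 42767 in *Nr2f6*-/- IgG2b. In *Nr2f6*+/+ αPD-L1 it ran from 20502 to 85695 with a median of 40141, and in *Nr2f6*-/- αPD-L1 from 28825 to 63028 with a median of 56561. Both *Nr2f6*-/- groups lay wholly above *Nr2f6*+/+ IgG2b. Its log2 fold change of *Nr2f6*-/- αPD-L1 against *Nr2f6*+/+ IgG2b was 1.09 (SE 0.30, 2.13-fold, adjusted p = 0.102 in limma), the smallest p of any member in any comparison.

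*mt-Cytb*, the heme-carrying core of complex III, followed a like order. It was at 14535, 15757 and 13835 normalized counts in *Nr2f6*+/+ IgG2b, at 31044, 18050 and 22366 in *Nr2f6*-/- IgG2b, at 20461 to 30820 (median 27911) in *Nr2f6*-/- αPD-L1 and at 10135 to 33991 (median 18163) in *Nr2f6*+/+ αPD-L1. The log2 fold change of *Nr2f6*-/- αPD-L1 against *Nr2f6*+/+ IgG2b was 0.87 (SE 0.25, adjusted p = 0.113 in limma), and the groups did not overlap.

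*mt-Co1*, which reduces oxygen in complex IV, was at 4118, 6410 and 4507 normalized counts in *Nr2f6*+/+ IgG2b and at 7590, 6231 and 7200 in *Nr2f6*-/- IgG2b, where the highest of the former exceeded the lowest of the latter. In *Nr2f6*-/- αPD-L1 it lay at 6731 to 11104 (median 8304), above all 3 *Nr2f6*+/+ IgG2b samples, with a log2 fold change of 0.81 (SE 0.26, adjusted p = 0.183 in limma). For *mt-Nd4*, *mt-Nd2* and *mt-Nd5*, further membrane subunits of complex I, the same log2 fold changes were 1.04, 0.97 and 0.70 (adjusted p = 0.107, 0.118 and 0.296), again without overlap of the groups. *mt-Nd3* went the other way at very low levels, with 77.3, 24.0 and 138 normalized counts in *Nr2f6*+/+ IgG2b against 1.21 to 23.2 in *Nr2f6*-/- αPD-L1 (unadjusted p = 0.0542). *mt-Nd6* was at 0 in 5 of the 18 samples and at most at 79.2.

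**Figure D2:**
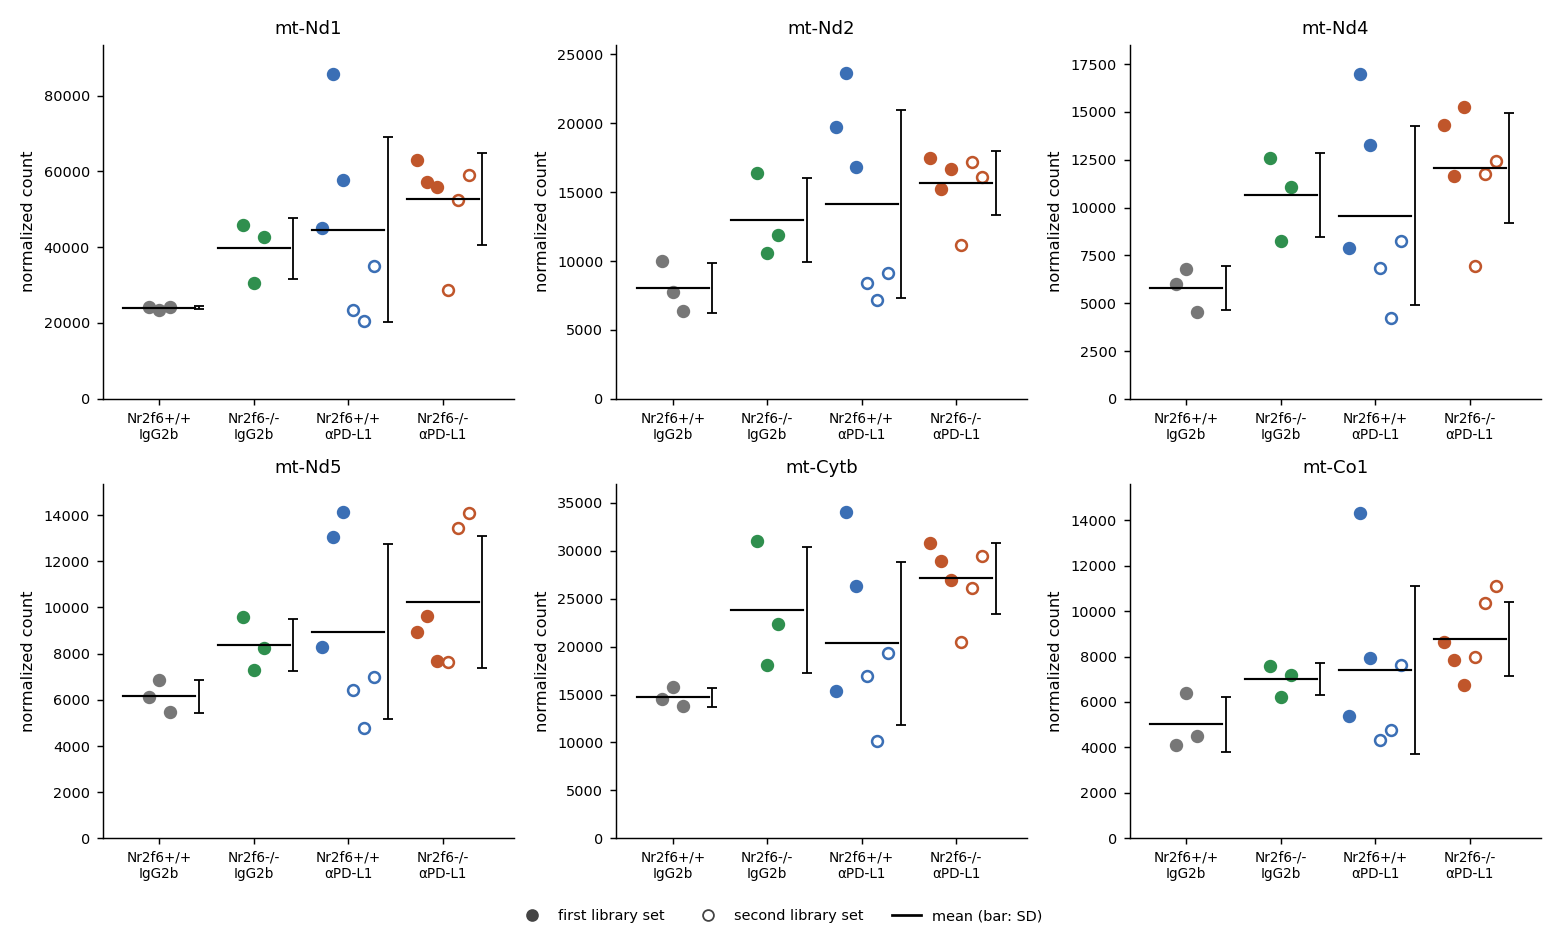
Normalized counts (y axis from 0) of the 6 abundant mitochondrial mRNAs in each of the 18 samples by group; filled points are the first library set, open points the second, lines are means and bars SD. All 6 were higher in every *Nr2f6*-/- αPD-L1 sample than in any *Nr2f6*+/+ IgG2b sample, and *Nr2f6*+/+ αPD-L1 samples lay on both sides of these, with the second library set below the first for *mt-Nd1*, *mt-Nd2* and *mt-Nd5*.

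Comparing *Nr2f6*-/- αPD-L1 with *Nr2f6*+/+ IgG2b, which joins loss of *Nr2f6* and PD-L1 blockade, 12 of the 95 members (12.6%) were higher at an unadjusted p under 0.05, against 3.12% of all genes tested, and 2 were lower, against 5.92%. The 12 were the 6 abundant mitochondrial mRNAs and 6 of 87 nuclear members. The 2 were *Ndufaf6*, a complex I assembly factor, at 216, 225 and 127 normalized counts against 0 to 244 (log2 fold change -3.00, SE 1.37, adjusted p = 0.494 in limma), and *Atp5sl*, a non-subunit, at 475, 553 and 664 against 167 to 558 (log2 fold change -1.14, SE 0.47, adjusted p = 0.394). For both the groups overlapped, and their log2 fold changes were larger in size than those of the 12. For *Ndufaf6* the size rests on samples at 0 in *Nr2f6*-/- αPD-L1: its group means were 189 in *Nr2f6*+/+ IgG2b and 99.4 in *Nr2f6*-/- αPD-L1. Without overlap of the groups, 10 members were higher, against 2.17% of all genes, among them the 6 mitochondrial mRNAs, *Cox8a*, *Ndufs7* and *Ndufv3*. In the other direction *Ndufc1* and *mt-Nd3* were lower without overlap, and the share of all genes that were was not counted. The median log2 fold change was 0.92 over the 6 abundant mitochondrial mRNAs, 0.10 over the nuclear members and -0.12 over all genes tested. Scaling to the same total moved the median of all genes to -0.19, that of the nuclear members to 0.03 and that of the 6 mRNAs to 0.85, and the nuclear members at an unadjusted p under 0.05 went from 6 higher and 2 lower to 4 and 4. In the first library set alone, with 3 samples per group, the nuclear median was 0.01, and *mt-Nd1*, *mt-Nd2* and *mt-Nd4* passed the threshold with log2 fold changes of 1.29, 1.06 and 1.26 (adjusted p = 0.0205, 0.0405 and 0.0435 in limma). With the library set as a covariate in the fit of all samples, these 3 and *mt-Cytb* passed it. The second set holds no IgG2b samples, so this covariate, here and in other comparisons, assumes the same set difference in both αPD-L1 groups. The shares of all genes with the other scaling, the first set alone or this covariate are not given here. In the first and second set, *mt-Nd1* means were 62809 and 26349 in *Nr2f6*+/+ αPD-L1 and 58716 and 46730 in *Nr2f6*-/- αPD-L1.

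Under IgG2b, loss of *Nr2f6* was compared with 3 samples a group, all of the first library set. Here 7 members (7.37%) were higher at an unadjusted p under 0.05, against 2.03% of all genes, and 2 (2.11%) were lower, against 3.32%. Without overlap, 15 members (15.8%) were higher in *Nr2f6*-/-, 10 nuclear and 5 mitochondrial, against 6.1% of all genes. *Atp5sl* and *Ndufa9* were lower without overlap, and the share of all genes in that direction was not counted. The median log2 fold change was 0.68 over the 6 abundant mitochondrial mRNAs, 0.13 over nuclear members and -0.06 over all genes.

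*Atp5f1*, subunit b in the peripheral stalk of the ATP synthase (RefSeq symbol *Atp5pb*, GRCm38.p6 chromosome 3, 105942698 to 105959263), had the smallest p of that comparison. Its normalized counts were 5099, 5959 and 4622 in *Nr2f6*+/+ IgG2b and 8466, 8306 and 9201 in *Nr2f6*-/- IgG2b, with a log2 fold change of 0.73 (SE 0.21, adjusted p = 0.595 in limma, 0.0284 in DESeq2). Under αPD-L1 it lay at 5591 to 6413 (median 5910) in all 6 *Nr2f6*+/+ samples. In *Nr2f6*-/- αPD-L1 it split by library set, with 6770, 8328 and 8071 in the first and 5210, 5755 and 5012 in the second, so that first-set samples of *Nr2f6*-/- were above, and second-set samples within or below, the *Nr2f6*+/+ αPD-L1 range.

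*Ndufv3*, a small subunit of the NADH-oxidizing arm of complex I, was narrowly grouped in *Nr2f6*+/+ IgG2b at 2300, 2415 and 2386 normalized counts, below every sample of the 3 other groups. It was at 4810, 3204 and 3865 in *Nr2f6*-/- IgG2b, and under αPD-L1 at 2682 to 6317 (median 3200) in *Nr2f6*+/+ and at 2990 to 4040 (median 3259) in *Nr2f6*-/-. The log2 fold change of genotype under IgG2b was 0.72 (SE 0.26, adjusted p = 0.846 in limma). The 3 *Nr2f6*+/+ IgG2b samples were the lowest of all 18 for this gene. On the lower side, *Atp5sl*, a non-subunit, was at 475, 553 and 664 in *Nr2f6*+/+ IgG2b and at 146, 251 and 275 in *Nr2f6*-/- IgG2b (unadjusted p = 0.0175), and *Ndufaf7*, an arginine methyltransferase for complex I assembly, at 510, 902 and 645 against 529, 224 and 324 (unadjusted p = 0.0292).

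**Figure D3:**
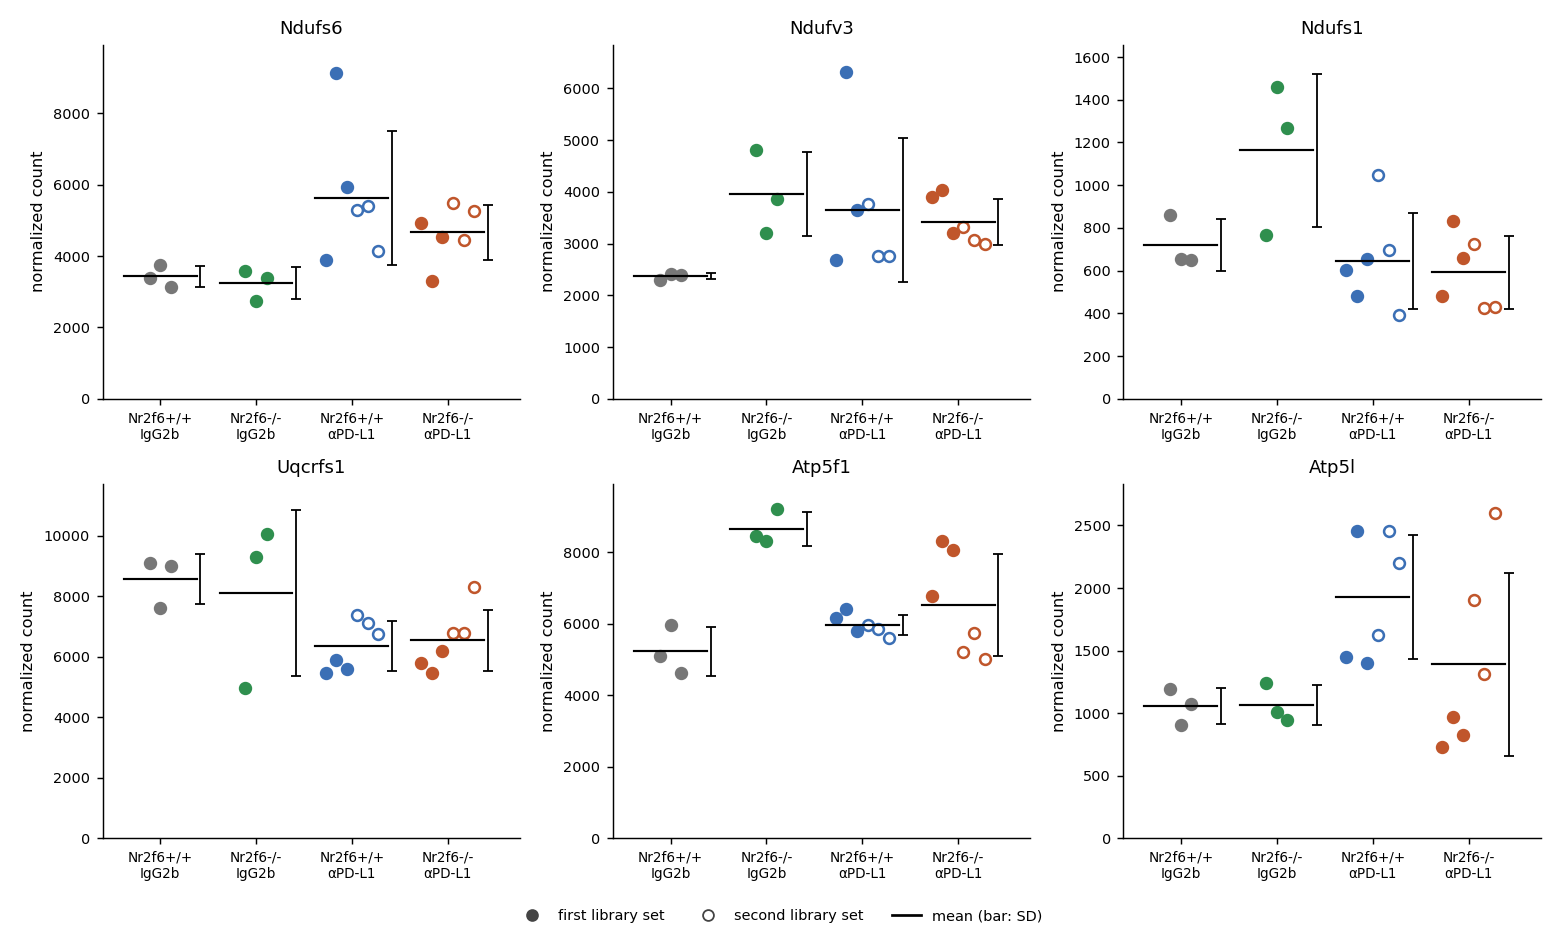
Normalized counts (y axis from 0) of 6 nuclear members in each of the 18 samples by group; filled points are the first library set, open points the second, lines are means and bars SD. *Ndufv3* was lowest in the 3 *Nr2f6*+/+ IgG2b samples, and *Atp5f1* and *Atp5l* split by library set within *Nr2f6*-/- αPD-L1.

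In *Nr2f6*+/+ mice, αPD-L1 was compared with IgG2b. At an unadjusted p under 0.05, 13 members (13.7%) were higher, against 2.19% of all genes, 10 of them nuclear and 3 mitochondrial, and 1 was lower, against 5.05%. Without overlap of the groups 7 members were higher, all nuclear, against 1.32%, among them *Atp5d*, *Atp5l*, *Ndufa8*, *Ndufb7*, *Ndufs6* and *Ndufv3*. The nuclear median log2 fold change was 0.21 and that of all genes -0.10. With scaling to the same total they were 0.12 and -0.19, and 6 nuclear members were higher and 2 lower at an unadjusted p under 0.05 in place of 10 and 1. With the library set as a covariate 6 were higher and 1 lower. The shares of all genes under that scaling and that covariate are not given here.

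*Ndufs6*, a zinc-binding accessory subunit of complex I, had the smallest p there, at 3399, 3751 and 3148 normalized counts with IgG2b and 3904 to 9137 (median 5355) with αPD-L1 (log2 fold change 0.66, SE 0.22, adjusted p = 0.363 in limma). *Atp5l*, subunit g in the membrane part of the ATP synthase, was at 1193, 903 and 1074 with IgG2b and 1403 to 2455 (median 1913) with αPD-L1 (log2 fold change 0.84, SE 0.32, adjusted p = 0.535). *Ndufb2*, a membrane-arm subunit of complex I, was at 560, 470 and 977 against 707 to 1970 (log2 fold change 0.85), and the groups overlapped. *Uqcrfs1*, the Rieske iron-sulfur protein of complex III, was the single lower member, at 9097, 7630 and 9000 against 5469 to 7403 (log2 fold change -0.43, SE 0.20, adjusted p = 0.64), with no overlap. *mt-Nd1* and *mt-Nd2* had log2 fold changes of 0.71 and 0.69 over all samples (adjusted p = 0.586 and 0.561) and of 1.33 and 1.33 in the first library set alone, where both passed the threshold (adjusted p = 0.0121 and 0.0106 in limma). In that set the mitochondrial median was 0.999 and the nuclear median 0.22. In the second set of *Nr2f6*+/+ αPD-L1 *mt-Nd1* was at 23386, 20502 and 35160, of which 2 lay below and 1 above the *Nr2f6*+/+ IgG2b samples.

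In *Nr2f6*-/- mice, αPD-L1 against IgG2b gave 3 members (3.16%) higher at an unadjusted p under 0.05, against 4.34% of all genes, and 6 (6.32%) lower, against 5.35%, shares near those of all genes. *Ndufs1*, the largest core subunit of complex I, had the smallest p: it was at 765, 1461 and 1266 normalized counts with IgG2b and at 424 to 832 (median 569) with αPD-L1, so the groups overlapped (log2 fold change -0.97, SE 0.35, adjusted p = 0.301 in limma). *Ndufc1*, a small complex I subunit, was at 2849, 2581 and 3121 against 1695 to 2248, with no overlap. *Ndufa7* (log2 fold change 0.52), *Ndufs6* (0.52) and *Ndufaf7* (0.81) were the 3 on the higher side. Among those on the lower side, *Cox6a2*, the muscle isoform of a complex IV subunit, was at 356, 23.6 and 258 with IgG2b and at 0 in 4 of 6 αPD-L1 samples, *Atp5s* was at 121, 85.7 and 86.4 against 0 to 152.5, and *Ndufaf6*, a complex I assembly factor, was at 376, 99.9 and 224 against a range of 0 to 244. The nuclear median log2 fold change was 0.05 over all samples and -0.08 in the first library set alone, where its direction turned. Over the 6 abundant mitochondrial mRNAs the median was 0.27, against 0.34 in the first set and 0.47 with the library set as a covariate. With that covariate 2 mitochondrial members were higher at an unadjusted p under 0.05 in place of 0. The share of all genes in that fit is not given here.

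Genotype under αPD-L1 was compared with 6 samples a group. Only 2 members (2.11%) were higher at an unadjusted p under 0.05, against 4.66% of all genes, and 6 (6.32%) lower, against 5.07%. The higher ones were *mt-Cytb* (log2 fold change 0.51, SE 0.20, adjusted p = 0.377 in limma) and *Ndufv2*, an iron-sulfur subunit of complex I, at 1826 to 2817 (median 2231) in *Nr2f6*+/+ and 1958 to 4314 (median 3097) in *Nr2f6*-/- (log2 fold change 0.44, SE 0.19). *Atp5d*, the delta subunit in the central stalk of the ATP synthase, had the smallest p, at 8712 to 11808 (median 10905) in *Nr2f6*+/+ and 4585 to 11050 (median 7633) in *Nr2f6*-/- (log2 fold change -0.50, SE 0.17, adjusted p = 0.283). Also lower at an unadjusted p under 0.05 were *Atp5l* (log2 fold change -0.59), *Ndufb4* (-0.55) and *Ndufaf6*, which was at 0 in replicates 4 and 5 of *Nr2f6*-/-. In each case the groups overlapped.

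For both ATP synthase subunits the genotypes were apart in the first library set and overlapped in the second, a difference between sets that was not tested. *Atp5d* was at 8712, 11154 and 11759 in *Nr2f6*+/+ and at 6567, 4585 and 6992 in *Nr2f6*-/- in the first set. In the second it was at 10656, 11808 and 9562 against 11050, 8274 and 8848. *Atp5l* was at 1403 to 2455 against 734 to 969 in the first set and at 1623 to 2454 against 1317 to 2598 in the second. In the first set alone 12 nuclear members were lower in *Nr2f6*-/- at an unadjusted p under 0.05 and 2 were higher. The share of all genes in that fit is not given here, so this count cannot be set against it.

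The median of the mitochondrial mRNAs also differed between the library sets in this comparison, a difference that was not tested. The median log2 fold change of the 6 abundant ones was 0.36 over all samples, -0.09 in the first set alone and 0.81 in the second set alone, beside nuclear medians of -0.03, -0.18 and 0.03. In the second set, *mt-Nd5* had a log2 fold change of 0.92 (SE 0.28, adjusted p = 0.719 in limma) and in the first of -0.40 (SE 0.21, adjusted p = 0.501). *mt-Cytb* and *mt-Nd4* had positive log2 fold changes in both sets, while *mt-Co1*, *mt-Nd1*, *mt-Nd2* and *mt-Nd5* were negative in the first and positive in the second. No member passed the threshold in either set.

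For the difference of the αPD-L1 effect between genotypes, no member (0) had a positive value at an unadjusted p under 0.05, against 3.09% of all genes, and 3 (3.16%) had a negative value, against 1.88%: *Atp5s*, *Ndufv3* (-0.76, SE 0.32) and *Atp5f1* (-0.63, SE 0.25), each with an adjusted p of 0.974 in limma. The median was -0.15 over nuclear members and -0.26 over the 6 abundant mitochondrial mRNAs. Over all genes it was 0.06. In the first library set alone, which holds all IgG2b samples, these medians were -0.33, -0.73 and 0.10. There 7 nuclear members had a negative value at an unadjusted p under 0.05, and the share of all genes in that fit is not given here.

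**Figure D4:**
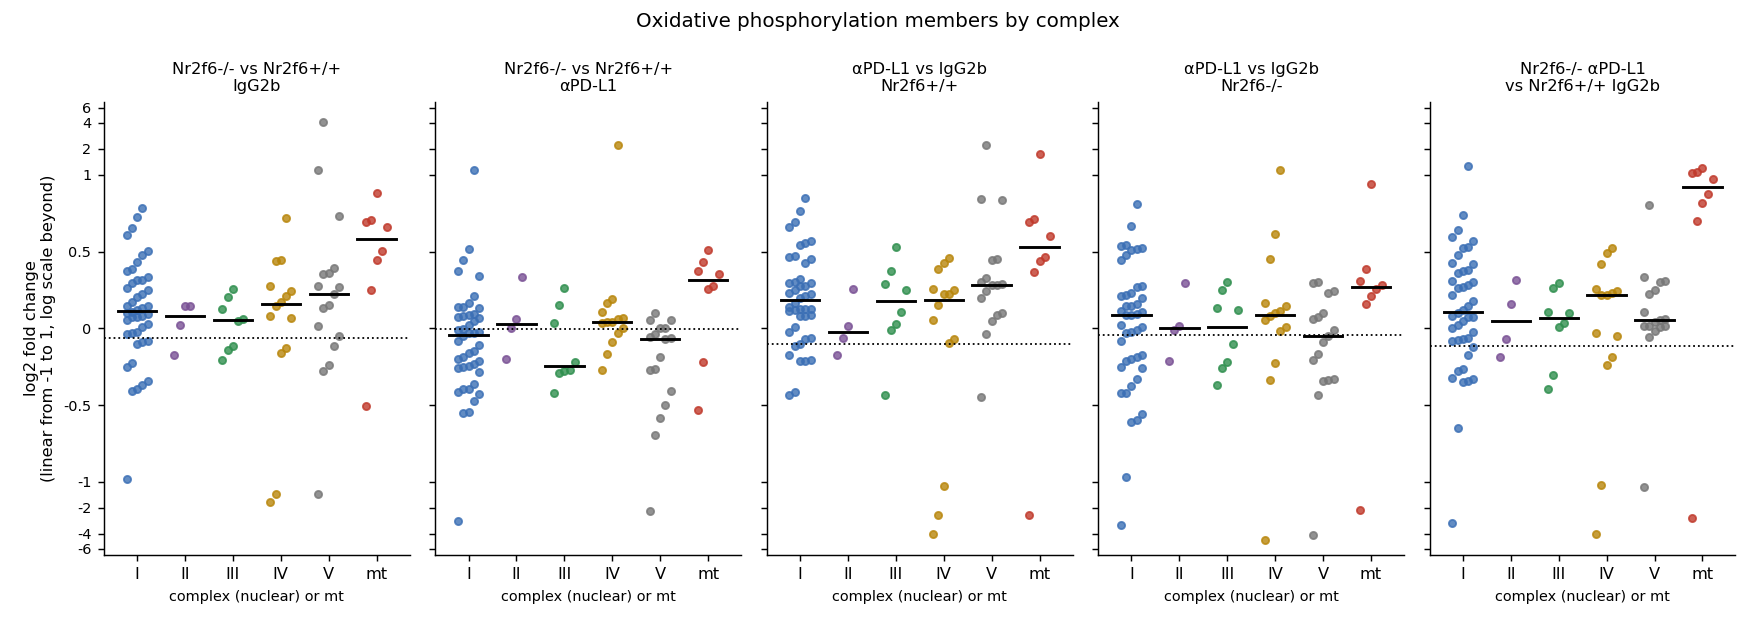
Log2 fold changes (y axis, linear from -1 to 1 and logarithmic beyond) of the 95 members in 5 comparisons, with nuclear members by complex and the 8 mitochondrial members at the right of each panel; black lines are group medians and the dotted line is the median of all genes tested. The median over all nuclear members lay between -0.03 and 0.21, and the mitochondrial median was 0.92 for *Nr2f6*-/- αPD-L1 against *Nr2f6*+/+ IgG2b.

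By complex, assigned from the symbol prefix with non-subunits counted in, nuclear members are described by their medians, with no test. For genotype under IgG2b the median log2 fold changes were 0.11 for complex I, 0.08 for complex II, 0.06 for complex III, 0.16 for complex IV and 0.22 for complex V. For genotype under αPD-L1 they were -0.04, 0.03, -0.25, 0.04 and -0.07 in the same order. For αPD-L1 in *Nr2f6*+/+ they were 0.18, -0.03, 0.18, 0.18 and 0.28, with 15 of 17 members of complex V positive. The 4 subunits of complex II, which also works in the tricarboxylic acid cycle and has no mitochondrially encoded subunit, had no unadjusted p under 0.05 in any comparison. *Sdha*, its flavoprotein, was at 4353, 3722 and 4425 normalized counts in *Nr2f6*+/+ IgG2b, 3751, 4658 and 5544 in *Nr2f6*-/- IgG2b, then 2970 to 4856 under αPD-L1 in *Nr2f6*+/+ and 2852 to 4875 in *Nr2f6*-/-. *Atp5b*, the catalytic beta subunit of the ATP synthase, was at 12718, 12885 and 12176 in *Nr2f6*+/+ IgG2b and 11862, 12862 and 10335 in *Nr2f6*-/- IgG2b, and its log2 fold changes were between -0.11 and 0.10 in the 5 comparisons of groups. *Cox4i1*, the common isoform of a complex IV subunit, had log2 fold changes between -0.13 and 0.10, while *Cox4i2* was at 0 throughout.

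The 67 nuclear members averaging 1000 normalized counts or more had coefficients of variation over the 18 samples between 10.8% and 41.9% with a median of 22.9%, and the 6 abundant mitochondrial mRNAs with a median of 35.8%. Zeros occurred in 6 nuclear members: *Cox6a2* (8 samples), *Atp5s* (4), *Cox6b2*, *Ndufs5* and *Ndufaf6* (2 each) and *Cox7a1* (1). Of these, *Cox6b2*, *Ndufs5* and *Cox7a1* averaged only 14.1, 15.2 and 34.4 normalized counts. The others also had samples well above 0, up to 381 for *Ndufaf6*, 356 for *Cox6a2* and 152.5 for *Atp5s*.

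Library sets also separated nuclear members. Within *Nr2f6*-/- αPD-L1, 18 of 95 members (18.9%), all nuclear, were higher in every sample of the second set than in any of the first, against 8% of all genes, and 3 (3.16%) were lower, against 7.88%. The 18 included *Atp5b*, *Atp5d*, *Atp5g1*, *Atp5g3*, *Atp5l*, *Cox5b*, *Cox6b1*, *Cox8a*, *Uqcrc1* and *Uqcrfs1*. For *Cox5b*, a subunit of complex IV, the values were 5393, 4982 and 4567 in the first set and 10569, 9641 and 11909 in the second. Within *Nr2f6*+/+ αPD-L1, 8 members (8.42%) were higher in the second set without overlap, against 4.96%, and 9 (9.47%) were lower, against 5.25%, among them *mt-Nd1*, *mt-Nd2* and *mt-Nd5*. *Atp5g1*, *Ndufb3* and *Uqcrfs1* were higher in the second set in both genotypes.

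Genes around the respiratory chain gave few calls. Of 75 genes of the mitochondrial ribosome, which translates the mitochondrial mRNAs, *Mrpl45* alone passed the threshold, with a log2 fold change of -1.59 (SE 0.32, adjusted p = 0.0274 in limma) for genotype under αPD-L1, where 50 of the 75 were negative and the median was -0.15. In no comparison was a gene called among 27 for transcription and maintenance of mitochondrial DNA, 39 further assembly factors, 17 of the tricarboxylic acid cycle, 12 nuclear regulators of respiration, 6 carriers and uncouplers or the 2 mitochondrial rRNAs. For *Nr2f6*-/- αPD-L1 against *Nr2f6*+/+ IgG2b, 22 of the 27 genes for mitochondrial transcription and DNA maintenance were negative with a median of -0.31 (all genes: -0.12), *Tfam*, which packages mitochondrial DNA, at -0.23 (SE 0.32) and *Polrmt*, the mitochondrial RNA polymerase, at 1.14 (SE 0.85). *mt-Rnr1* and *mt-Rnr2* were at 0.37 (SE 0.26) and 0.09 (SE 0.34) there. *Fh1*, the fumarase of the tricarboxylic acid cycle, was at -0.80 (SE 0.29, adjusted p = 0.276) and *Ucp2*, an uncoupling protein, at 0.77 (SE 0.30, adjusted p = 0.336).

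The promoters of the nuclear members were searched for motifs of known regulators, since NRF1, GABP and YY1 are textbook activators of respiratory genes and NR2F6 is a nuclear receptor. RefSeq promoters (GRCm38.p6, 250 bases before to 50 after the start) were found by symbol for 74 of 87. The NRF1 motif GCGCATGC, on either strand, was in 12 of 74 promoters (16.2%) and in 6.3% of 8826 tested genes with a promoter. The YY1 motif AAGATGGC was in 11 (14.9%, against 5.62%), the ETS motif of GABP, CCGGAAGT, in 5 (6.76%, against 9.7%), the CRE motif TGACGTCA in 4 (5.41%, against 3.78%) and the nuclear receptor motif AGGTCA in 16 (21.6%, against 14.7%). These matches are letters in a window and not sites of binding. An NRF1 match is shown for a member of complexes II, III and V, with GCATGCGC, the motif on the other strand, in capitals:
Sdhb: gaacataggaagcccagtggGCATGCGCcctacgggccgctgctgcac
Uqcr11: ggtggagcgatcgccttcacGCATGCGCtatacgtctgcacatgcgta
Atp5l: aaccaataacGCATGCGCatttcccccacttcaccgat

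They lie at chr4:140961197-140961244 (plus strand), chr10:80406798-80406845 (minus strand) and chr9:44920955-44920992 (minus strand), and the motif begins 54, 4 and 240 bases before the start. *Sdhb*, an iron-sulfur subunit, had log2 fold changes between 0.02 and 0.31 in the 5 comparisons of groups, and *Uqcr11*, a small subunit, between -0.42 and 0.53, none with an unadjusted p under 0.05. For *Atp5l* the values under αPD-L1 are given above.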

How the data were processed

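The authors trimmed reads with Cutadapt and Trimmomatic, removed those shorter than 22 nucleotides, mapped to mm10 with STAR, then Bowtie2, kept 1 alignment (the primary) per read and counted genes with HTSeq-count. They deposited, per gene and sample, a signal: the read count divided by a size factor, called normalized count here. All values were whole multiples of 1 step per sample (tolerance 0.02 reads), which gives the reads and depth (100% of values whole). Floors cover counting error only. Annotation, strand setting and tool versions are not given in the sources used here.

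The test was limma (3.58.1, R 4.3.3) on log2(normalized count + 1) for genes averaging 10 or more, in a model of the 4 group means over 18 samples, eBayes with trend, two-sided, Benjamini-Hochberg adjustment, threshold 0.05. Fold changes are on that scale. They understate changes of genes that are low in every sample, but samples without reads can make them larger than the ratio of group means. Because of the 3′ kit, levels were not compared between genes. Members and gene lists were chosen with earlier results of these data known. Members named were the mitochondrial mRNAs, those with the 3 largest increases and decreases per comparison at an unadjusted p under 0.05, core subunits and isoforms; others were named after their values were seen. One member is counted but not reported on its own here. edgeR (4.0.16) and DESeq2 (1.42.0) on the recovered reads were alternatives. The fit was tested on simulated data.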

Additional observations from a re-analysis of the deposited data

Results flagged for a closer look

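In the groups of 6, a part of the named members was searched for 1 sample far from its group (Dixon's test at 95%). Of 52 groups checked, 10 held such a sample. For independent, normally distributed values chance flags about 1 in 20. The groups checked share samples between members and join both library sets, so the 10 cannot be measured against that rate. In *Nr2f6*+/+ αPD-L1, replicate 2 stood apart for *mt-Co1* (14310 normalized counts, next 7916) and *Ndufv3* (6317, next 3774), replicate 3 for *Ndufaf6* (381, next 167) and replicate 6 for *mt-Nd6* (71.2, next 24.6). In *Nr2f6*-/- αPD-L1, replicate 4 was low for *mt-Nd1* (28825, next 52317) and *mt-Nd2* (11174, next 15212) and high for *Ndufaf7* (1233, next 721). Replicate 5 stood apart for *mt-Nd6* (79.2, next 27.97), replicate 3 for *Atp5sl* (558, next 298) and replicate 1 for *Atp5s* (152.5, next 8.504). No cause was tested.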

How the results depend on the processing

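Members called were 0 in the main analysis of every comparison. At an unadjusted p under 0.05 they were 8 for genotype under αPD-L1, 9 for genotype under IgG2b, 14 for αPD-L1 in *Nr2f6*+/+, 9 for αPD-L1 in *Nr2f6*-/-, 14 for *Nr2f6*-/- αPD-L1 against *Nr2f6*+/+ IgG2b and 3 for the difference of effects. For *Nr2f6*-/- αPD-L1 against *Nr2f6*+/+ IgG2b, members called at an adjusted p were 2 when only the groups compared were fitted (*mt-Cytb*, *mt-Nd2*), 4 with the library set as a covariate, 3 in the first library set alone, 5 with sample weights (the abundant mRNAs without *mt-Nd5*), 1 with DESeq2 (*mt-Cytb*) and 0 to 1 when leaving out 1 replicate (*mt-Nd1* without *Nr2f6*+/+ αPD-L1 replicate 2 or *Nr2f6*-/- αPD-L1 replicate 4). DESeq2 called 1 member for genotype under IgG2b (*Atp5f1*), and the first library set alone called 2 for αPD-L1 in *Nr2f6*+/+, where the nuclear minus the mitochondrial median log2 fold change moved to -0.78 from -0.32. The cause was not tested. The share of all genes called under each alternative is not given here, so these member counts cannot be set against it.

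With the replicate number as a replicate block, 4 members were called for *Nr2f6*-/- αPD-L1 against *Nr2f6*+/+ IgG2b and 0 in the 5 other comparisons. No pairing by number was seen: over 21 same-numbered pairs of different groups the correlation of deviations from the group means ran from -0.029 to 0.037, 0 of them over 0.1. Whether this measure would show a pairing was not tested, so it cannot exclude one. Pseudocounts of 0.5 or 10, low genes left in, a minimum mean of 50, quantile normalization, both scalings to totals and edgeR on recovered reads called 0 members in every comparison.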
